A study of Mus musculus with 32 samples.

Results

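This comparison sets the hippocampus of treated 5xFAD mice against that of untreated wild-type mice. It holds the 16 of 32 RNA-seq libraries that the labels call 5xFAD given D-45113 (5xFAD/D-45113, n = 8) and WT given vehicle (WT/Veh, n = 8), each group with 4 females and 4 males. The question was which genes were still away from the untreated wild-type level after treatment, and which were away from it only in treated disease mice. The other 16 libraries, 5xFAD/Veh and WT/D-45113 (n = 8 each), enter where they are needed to sort the genes, and all mice were 12 months old. 5xFAD mice carry mutant human transgenes, APP among them, that are driven by Thy1 regulatory sequences in neurons, on the C57BL/6J background, and deposit amyloid in the brain. D-45113 is a hydroxyl dendrimer, a small branched polymer, that carries an inhibitor of the CSF1 receptor. Vehicle mice received a hydroxyl dendrimer without the drug, so all 4 groups had been injected with dendrimer. Because 5xFAD/D-45113 and WT/Veh differed in both genotype and treatment, this comparison alone cannot tell the effects of transgenes and drug apart.

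Microglia, the resident macrophages of the brain, depend on signalling through the CSF1 receptor, which is encoded by Csf1r and binds CSF1 and IL-34. Around amyloid plaques they lower their homeostatic genes, such as P2ry12 and Tmem119, and raise a set known as the disease-associated microglia (DAM) genes, which includes Trem2, Cst7, Itgax and Clec7a. Astrocytes near plaques become reactive and raise Gfap and Serpina3n, and interferons raise antigen presentation and guanylate-binding protein genes in several brain cell types.

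Total counts ran from 10707410 to 28869539 in 5xFAD/D-45113 and from 15444249 to 27921743 in WT/Veh (exact two-sided permutation test over libraries, p = 0.441). Some libraries stood apart from their groups. Thy1, whose regulatory sequences drive the transgenes, was at 393 to 529 CPM (counts scaled to library size) in WT/Veh and at 876 to 1416 CPM in 5xFAD/Veh. In 5xFAD/D-45113 mice 1M and 4F it was at 423 and 523 CPM, within the wild-type range, while the other 6 treated 5xFAD mice lay above it. Both mice were above every WT/Veh mouse in Cst7, at 15.9 and 14.5 CPM against at most 0.73 CPM in WT/Veh. Marker genes of regions next to the hippocampus also varied. The mean centred log2 CPM of 12 striatal genes was -3.19, -3.13 and -2.35 in 5xFAD/D-45113 mice 2F, 2M and 3M against -0.30 to 1.90 in WT/Veh, and a thalamus or choroid plexus score over 1 was found in 4 treated 5xFAD, 5 WT/Veh, 5 WT/D-45113 and 0 of 8 5xFAD/Veh libraries. Counts are therefore also given without these libraries or with the scores as covariates.

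**Figure D1:**
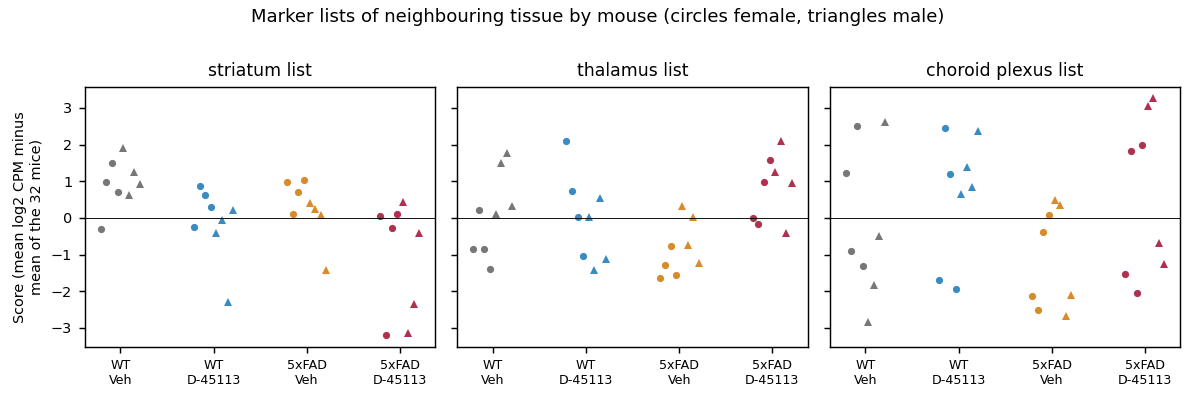
Marker scores of 3 neighbouring regions (mean log2 CPM of the listed genes, each centred on its mean over the 32 libraries) for each mouse, with circles for females, triangles for males and a line at the mean score of the 32 libraries. In the striatum panel 5xFAD/D-45113 mice 2F, 2M and 3M lie between -3.19 and -2.35, below every WT/Veh mouse, and in the thalamus and choroid plexus panels no 5xFAD/Veh mouse exceeds 1.

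With edgeR's quasi-likelihood test on 16723 genes (adjusted p under 0.05, Benjamini-Hochberg over all genes), 997 genes (5.96%) were higher and 808 (4.83%) lower in 5xFAD/D-45113 than in WT/Veh. A change of more than 2-fold was seen for 413 of the higher and 163 of the lower genes. The same test called 611 genes higher (3.65%) and 35 lower (0.209%) in 5xFAD/Veh than in WT/Veh. Between 5xFAD/D-45113 and 5xFAD/Veh it called 370 higher (2.21%) and 292 lower (1.75%), and against WT/D-45113 the treated 5xFAD mice had 622 higher (3.72%) and 225 lower (1.35%). These comparisons share control or treated mice and are not independent of each other. Without the libraries of high thalamus or choroid plexus score 562 genes differed between 5xFAD/D-45113 and WT/Veh in place of 1805, and without mice 2F, 2M and 3M 1194.

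The calls sorted the genes into 3 classes. Genes away from WT/Veh in the same direction in both 5xFAD groups numbered 486 (2.91% of genes tested), of which 467 were higher and 19 lower. Genes apart only in 5xFAD/D-45113 passed against WT/Veh, did not pass in 5xFAD/Veh against WT/Veh, and passed in the direct test of the 5xFAD groups. They numbered 354 (2.12%), of which 163 were higher and 191 lower. This rule does not use treated wild-type mice: against WT/D-45113, 35 of the 163 were called higher and 91 of the 191 lower, and in WT/D-45113 against WT/Veh the median log2 fold changes of these sets were 0.24 and -0.22. Most of the class was therefore not shown to be particular to treated 5xFAD mice. Genes apart only in 5xFAD/Veh met the mirrored rule, which left 27 higher and 4 lower genes (31 in all, 0.185%). A further 965 genes passed in 5xFAD/D-45113 and not in 5xFAD/Veh but missed the threshold in the direct test, so no difference between the 5xFAD groups was shown for them. Another 129 genes passed in 5xFAD/Veh alone in the same unresolved way. Single mice moved the classes that rest on the direct test: without 5xFAD/D-45113 mouse 2M, 4F or 3M, or 5xFAD/Veh mouse 1F, the genes apart only in 5xFAD/D-45113 were 190, 216, 551 and 226, and without mouse 3M or 5xFAD/Veh mouse 1F those apart only in 5xFAD/Veh were 49 and 19.

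**Figure D2:**
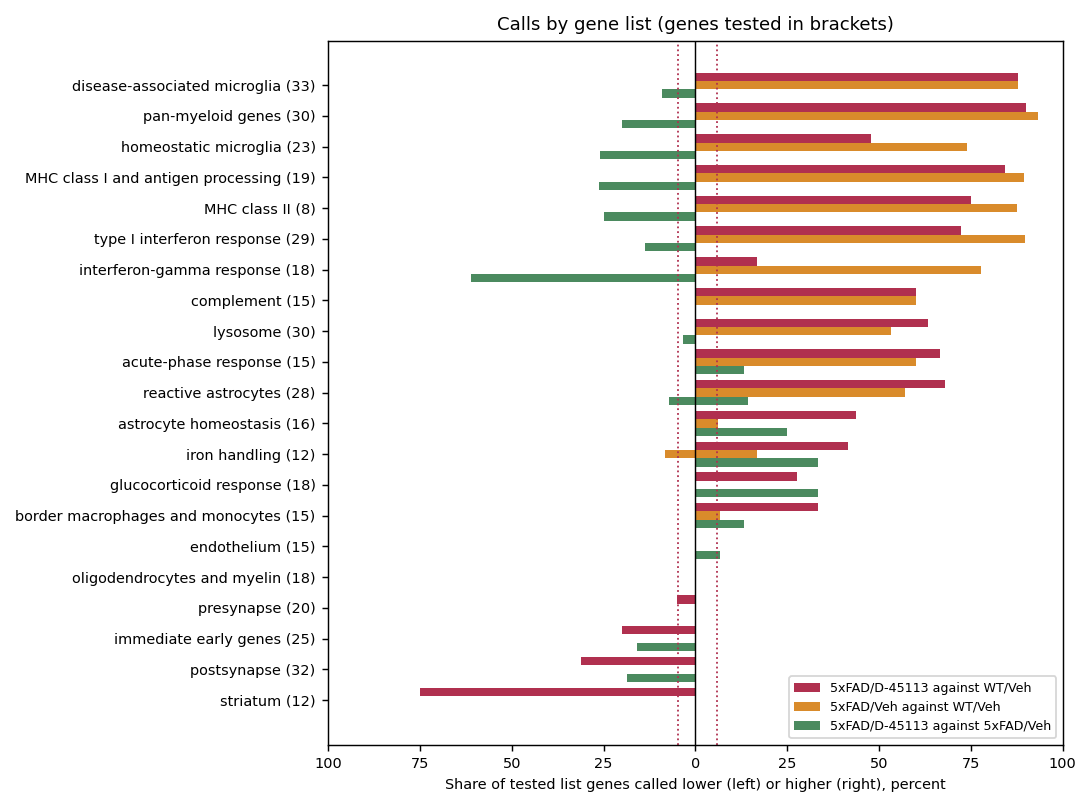
Percent of the tested genes of 21 gene lists that passed edgeR's test at adjusted p under 0.05, by comparison and direction, with dotted lines at the percent over all 16723 genes for 5xFAD/D-45113 against WT/Veh (5.96% higher, 4.83% lower). DAM genes reach 29 of 33 higher, postsynaptic genes 10 of 32 lower, and the interferon-gamma list falls from 14 of 18 higher in 5xFAD/Veh to 3 of 18 in 5xFAD/D-45113.

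Microglial disease genes stayed far above the wild-type level after treatment. Of 33 DAM genes tested, 29 were higher in 5xFAD/D-45113 than in WT/Veh and 0 lower, with a median log2 fold change of 2.01 against 0.024 over all genes, and 28 of them belonged to the genes away in both 5xFAD groups. Cst7 (cystatin F, a lysosomal protease inhibitor; ENSMUSG00000068129, chr2:150570415-150578944, plus strand, mm10) was at 0 to 0.73 CPM (median 0.24) in WT/Veh and at 14.4 to 59.8 CPM (median 24.6) in 5xFAD/D-45113. Every treated 5xFAD mouse exceeded every WT/Veh mouse (log2 fold change 6.71, adjusted p = 6.84e-10, SE 0.553). In 5xFAD/Veh the median was 48.3 CPM, and no difference between the 5xFAD groups was called in the direct test (log2 fold change -0.73, adjusted p = 0.29). Trem2, a lipid-sensing receptor of microglia (ENSMUSG00000023992, chr17:48346401-48354147, plus strand), was at 42.1 to 102 CPM (median 64.5) in treated 5xFAD mice and at 12.9 to 21.2 CPM (median 16.8) in WT/Veh. These ranges did not overlap (edgeR, log2 fold change 2.07, adjusted p = 2.11e-09, SE 0.192). Clec7a, a receptor for fungal glucans, was at 13.7 to 40.5 CPM against 0.182 to 2.6 CPM, again without overlap (log2 fold change 4.36, adjusted p = 4.76e-09, SE 0.411). In bulk tissue, fewer cells of a type and less RNA per cell cannot be told apart.

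Further DAM and phagocyte genes were higher as well. Tyrobp, the adaptor through which TREM2 signals, had medians of 28.3 CPM in 5xFAD/D-45113 and 8.58 CPM in WT/Veh (log2 fold change 1.71, adjusted p = 7.09e-06, SE 0.244). Cd68, a lysosomal glycoprotein of phagocytes, had medians of 49.5 and 11.6 CPM (log2 fold change 2.01, adjusted p = 1.4e-09, SE 0.182). Gpnmb, a glycoprotein of lipid-laden macrophages, was nearly level between the 5xFAD groups, with medians of 59.3 and 59.0 CPM against 6.08 CPM in WT/Veh. Atp6v0d2, a subunit of the lysosomal proton pump, was at 0 in 7 WT/Veh mice and at 0.0365 CPM in mouse 1F, against 0.611 to 6.86 CPM in treated 5xFAD mice (adjusted p = 1.78e-09, with no fold given over so low a level). Ccl3, a chemokine, rose by 4.88 and Igf1, a growth factor named after its values were seen, by 1.95 (adjusted p = 2.93e-08 and 2.93e-09). Of 30 lysosomal genes 19 were higher and 0 lower (median 0.56), among them the hydrolase Gusb (1.41). Of 30 pan-myeloid genes 27 were higher (median 1.34), including the Fc receptor Fcgr2b (2.82), the endotoxin co-receptor Cd14 (2.67) and the NADPH oxidase subunit Cybb (3.68).

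**Figure D3:**
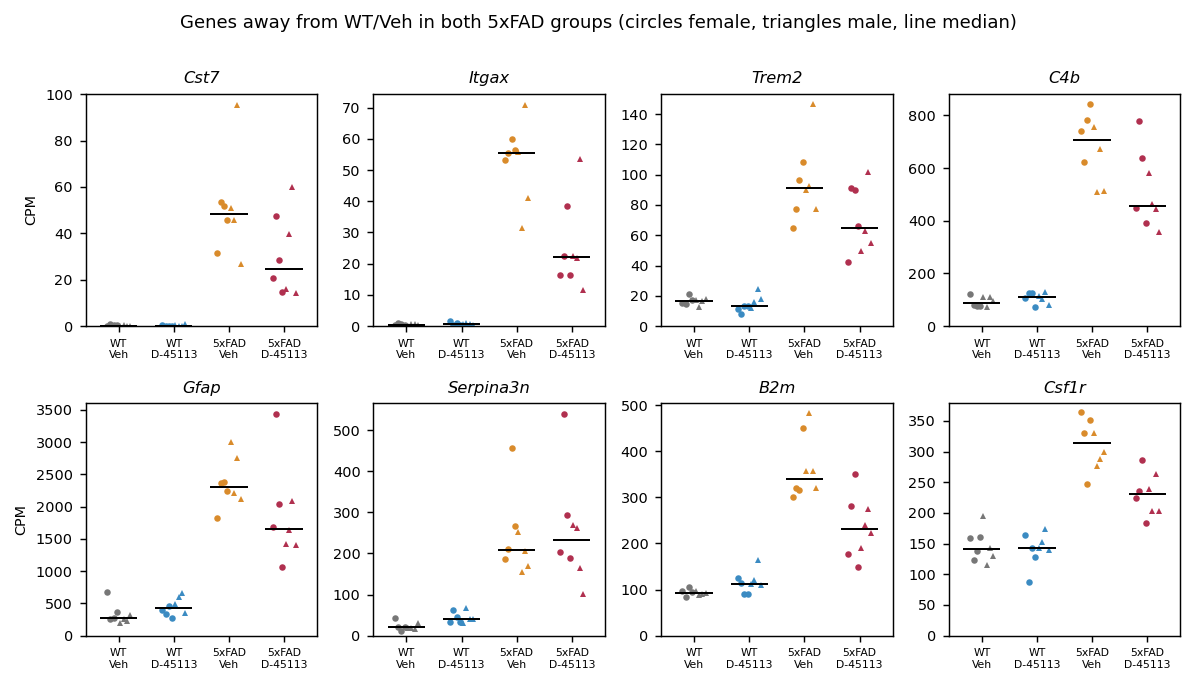
CPM of 8 genes away from WT/Veh in both 5xFAD groups, for each mouse of the 4 groups on a linear axis from 0, with circles for females, triangles for males and a line at the group median. For Cst7 all 5xFAD/D-45113 mice (14.4 to 59.8 CPM) lie above all WT/Veh mice (0 to 0.73 CPM), and for Itgax and B2m the treated 5xFAD medians lie between those of WT/Veh and 5xFAD/Veh.

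Complement and reactive astrocyte genes were also still high. Of 15 complement genes 9 were higher and 0 lower (median 1.36), and 0 of 15 passed in the direct test of the 5xFAD groups. C4b, a complement component of the classical pathway (ENSMUSG00000073418, chr17:34728380-34743882, minus strand), was at 358 to 777 CPM (median 457) in 5xFAD/D-45113 and at 70.6 to 122 CPM (median 89.2) in WT/Veh. The ranges were separate (log2 fold change 2.46, adjusted p = 9.49e-13, SE 0.161), although reads of C4b and its near copy C4a may have been split by the counting. Of 28 reactive astrocyte genes 19 were higher (median 1.21). Gfap, the intermediate filament of astrocytes (ENSMUSG00000020932, chr11:102887336-102900912, minus strand), was at 1059.8 to 3439 CPM (median 1654) against 202 to 669 CPM (median 268), with no overlap (log2 fold change 2.52, adjusted p = 1.78e-09, SE 0.229). Serpina3n, a secreted protease inhibitor, had medians of 232 and 19.9 CPM (log2 fold change 3.49, adjusted p = 8.35e-10, SE 0.297). Vim, another intermediate filament, and Osmr, the oncostatin M receptor, rose by 1.78 and 2.19 (adjusted p = 6.27e-08 and 7.83e-08). Aqp4, the water channel of astrocyte endfeet, rose by 0.75 (adjusted p = 0.0038).

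Among the 467 genes higher in both 5xFAD groups, the direct test placed 24 nearer to WT/Veh in the treated mice and 1, Lcn2, farther away. The median log2 fold change of the 467 against WT/Veh was 1.16 in 5xFAD/D-45113 and 1.43 in 5xFAD/Veh, both measured against the same WT/Veh mice. The direct calls depended on the setting. Over the class of 486 they numbered 1 with adjustment for scores of thalamus and choroid plexus and 0 without libraries scoring high for either. They numbered 4 without low-Thy1 mice 1M and 4F, but 44 without mice 2F, 2M and 3M. Between the 5xFAD groups the 467 had a median of -0.25 in the main fit and -0.26, -0.26, -0.20 and -0.37 in these settings. In males only, the direct test called 0 genes. Itgax, the integrin alpha X chain of dendritic cells and DAM, was at 11.5 to 53.6 CPM (median 22.1) in 5xFAD/D-45113, at 31.5 to 70.9 CPM (median 55.6) in 5xFAD/Veh and at 0.182 to 0.859 CPM (median 0.484) in WT/Veh. It was still 5.68 above WT/Veh on the log2 scale (SE 0.367, adjusted p = 9.49e-13) and lower than in 5xFAD/Veh by a log2 fold change of -1.07 (adjusted p = 0.0243). Csf1r itself, the receptor the drug is aimed at, was at 184 to 287 CPM (median 230.5) in 5xFAD/D-45113, 248 to 365 CPM (median 314) in 5xFAD/Veh and 114 to 195 CPM (median 140.4) in WT/Veh. It was above WT/Veh (log2 fold change 0.66, adjusted p = 0.000226, SE 0.12) and below 5xFAD/Veh (log2 fold change -0.44, adjusted p = 0.0323). Irf8, a transcription factor of the myeloid lineage, had medians of 15.5, 28.3 and 7.42 CPM in the same order of groups. The chemokine Ccl6 (log2 fold change -0.88 against 5xFAD/Veh), and progranulin, Grn (-0.45), were further members.

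Antigen presentation genes were among these 24, whose direct calls depended on the setting as given above. Of 19 MHC class I and processing genes, 16 were higher in 5xFAD/D-45113 than in WT/Veh (median 1.08) and 5 were lower than in 5xFAD/Veh. B2m, the light chain of MHC class I, was at 148 to 350.3 CPM (median 232) in 5xFAD/D-45113 and at 84.4 to 105 CPM (median 93.5) in WT/Veh (log2 fold change 1.34, adjusted p = 2.14e-08, SE 0.14). In 5xFAD/Veh it was at 301 to 484 CPM (median 339.7), higher than in the treated mice (log2 fold change -0.63, adjusted p = 0.00941). The heavy chain H2-D1 (1.47 against WT/Veh, -0.59 against 5xFAD/Veh) and the peptide transporter Tap1 (1.05 and -1.08, named after its values were seen) showed the same order, with the reservation that H2 genes share sequence. Of 8 MHC class II genes 6 were higher than in WT/Veh (median 1.65) and 2 lower than in 5xFAD/Veh, H2-Eb1 (chosen after its values were seen) by a log2 fold change of -1.63. Cd274, which encodes the checkpoint ligand PD-L1, remained 1.29 above WT/Veh (adjusted p = 0.00445).

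The 19 genes lower in both 5xFAD groups were small in their changes, with a median log2 fold change of -0.75. Rhobtb2, an adaptor of ubiquitin ligases, was at 55.3 to 93.8 CPM (median 81.4) in 5xFAD/D-45113 and at 109 to 193 CPM (median 145) in WT/Veh (log2 fold change -0.94, adjusted p = 4.45e-06, SE 0.13). It was also lower than in 5xFAD/Veh (log2 fold change -0.46, adjusted p = 0.0364). Srsf10, a splicing regulator, and Per2, a core clock gene, changed by -0.70 and -1.07 on the log2 scale (adjusted p = 2.07e-05 and 0.00234). Leaving out the libraries with a high thalamus or choroid plexus score left 320 genes away in both 5xFAD groups, and leaving out mice 2F, 2M and 3M, whose striatum scores were under -2, left 363. In that last setting 360 of the 486 genes were still called against WT/Veh. Without the low-Thy1 mice 1M and 4F the class held 467 genes.

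Genes higher in 5xFAD/D-45113 and not in 5xFAD/Veh included astrocyte and iron genes and, of the 15 acute-phase genes, only Lrg1. Of the 163 genes, 35 were also called above WT/D-45113. Lrg1, a leucine-rich acute-phase glycoprotein (ENSMUSG00000037095, chr17:56119678-56122001, minus strand), was at 0.741 to 16.9 CPM (median 6.99) in 5xFAD/D-45113, 0.199 to 1.06 CPM (median 0.332) in WT/Veh and 0.283 to 2.13 CPM (median 0.514) in 5xFAD/Veh. Only mouse 3F fell inside the wild-type range (log2 fold change 4.04, adjusted p = 3.2e-05, SE 0.626), and the gene was higher than in 5xFAD/Veh by 3.21 (adjusted p = 0.00341). It was also high in treated wild-type mice, at a median of 4.94 CPM (WT/D-45113 against WT/Veh, log2 fold change 4.01, adjusted p = 0.00272). Lcn2, an iron-binding acute-phase protein, was away in both 5xFAD groups and went farther in the treated mice, with medians of 6.86 CPM in 5xFAD/D-45113, 1.58 in 5xFAD/Veh, 3.03 in WT/D-45113 and 0.13 in WT/Veh. Of 15 acute-phase genes 10 were higher than in WT/Veh (median 1.75), 9 of them in both 5xFAD groups. Cebpd, a transcription factor, and Socs3, a feedback inhibitor of cytokine signalling, were among these 9 and were chosen after their values were seen. They rose by 1.31 and 2.15 (adjusted p = 2.8e-05 and 0.000655). Hmox1, which degrades haem, rose by 0.93 and the metal-binding Mt1 by 0.86 (adjusted p = 0.000908 and 0.00177).

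The neutrophil genes were low in level. Only 3 of 12 listed passed the filter on low counts, through the treated groups in which they were high, so no count over them is read as a result, and at a mean of at least 1 CPM 1 was tested and 0 called. S100a8, a calcium-binding alarmin of neutrophils, was at 0.793 to 3.14 CPM (median 1.22) in 5xFAD/D-45113 and at 0 to 0.461 CPM (median 0.176) in WT/Veh (log2 fold change 2.74, adjusted p = 0.00263, SE 0.614). All treated 5xFAD mice exceeded all WT/Veh mice, at levels of at most 3.14 CPM. Its partner S100a9 rose by 2.88 (adjusted p = 0.00456), and Chil3, a chitinase-like lectin, by 5.20 (adjusted p = 0.000675), with Chil3 ranging from 0.0535 to 9.0 CPM among the treated mice. In WT/D-45113 against WT/Veh, S100a8, S100a9 and Chil3 had log2 fold changes of 2.83, 3.09 and 4.59, and none of the neutrophil genes was called between 5xFAD/D-45113 and WT/D-45113.

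Astrocyte genes outside the reactive list formed another set. Sparc, a secreted matrix protein of astrocytes and vessels (ENSMUSG00000018593, chr11:55394500-55423183, minus strand), was at 451 to 1155 CPM (median 798) in 5xFAD/D-45113, 212 to 378 CPM (median 324) in WT/Veh and 248 to 456 CPM (median 363) in 5xFAD/Veh. The treated mice did not overlap with WT/Veh (log2 fold change 1.31, adjusted p = 7.3e-06, SE 0.187). Etnppl, which degrades phosphoethanolamine in astrocytes, was at 38.9 to 182 CPM (median 110.3) against 16.8 to 49.2 CPM (median 30.2), with mice 3M and 4M inside the wild-type range (log2 fold change 1.70, adjusted p = 0.000332, SE 0.312). Gjb6, the gap junction protein connexin 30, and Itih3, a hyaluronan-binding protein, rose by 0.70 and 1.46 (adjusted p = 0.00103 and 0.000618). Ntrk2, the receptor of BDNF on neurons and astrocytes, had medians of 1237 and 804 CPM (log2 fold change 0.67, adjusted p = 0.000153, SE 0.118). Of 16 astrocyte homeostasis genes 7 were higher and 0 lower (median 0.38), against 1 higher in 5xFAD/Veh, and 4 were higher in the direct test of the 5xFAD groups. Slc1a3, a glutamate transporter of this list, rose by 0.60 against WT/Veh but was not resolved between the 5xFAD groups (adjusted p = 0.273).

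Iron and glucocorticoid-responsive genes were higher as well. Of 12 iron genes 5 were higher than in WT/Veh and 0 lower (median 0.47), and 4 were higher in the direct test. Tfrc, the transferrin receptor, was at 75.4 to 200.2 CPM (median 115) against 43.3 to 79.4 CPM (median 61.5) (log2 fold change 0.92, adjusted p = 5.02e-05, SE 0.149), and only mouse 4F overlapped with WT/Veh. Slc11a2, which carries ferrous iron out of endosomes, and Cp, the ferroxidase ceruloplasmin, rose by 0.46 and 0.91 (adjusted p = 0.000685 and 0.00345). Of 18 glucocorticoid-responsive genes 5 were higher than in WT/Veh (median 0.62), 0 passed in 5xFAD/Veh, and 6 were higher in the direct test. In treated wild-type mice the list had a median of 0.51 in WT/D-45113 against WT/Veh and of 0.017 with 0 called in 5xFAD/D-45113 against WT/D-45113. The 4 genes of this list apart only in 5xFAD/D-45113 became 0 with no filter, the replicate block or log2(FPKM + 1). Plin4, a lipid droplet protein, was at 2.08 to 41.8 CPM (median 12.3) against 1.19 to 4.56 CPM (median 2.28) (log2 fold change 2.63, adjusted p = 0.00957, SE 0.674). Mice 1F and 1M were the highest for Plin4, at 36.9 and 41.8 CPM.

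**Figure D4:**
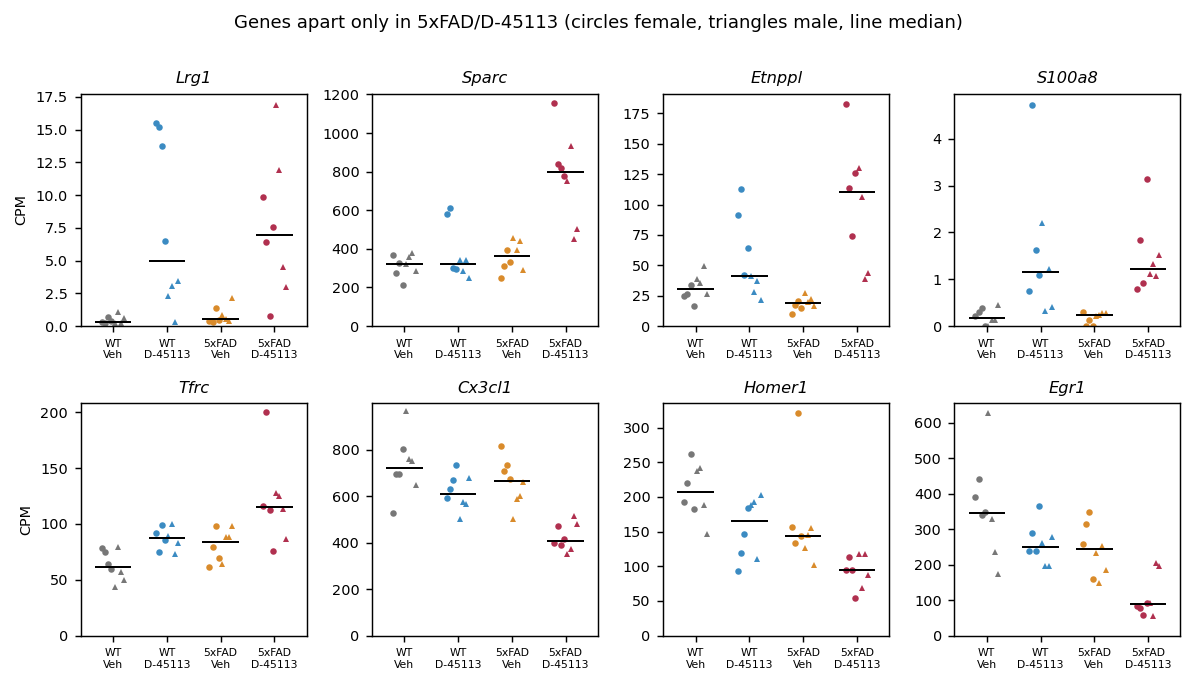
CPM of 8 genes apart only in 5xFAD/D-45113, for each mouse of the 4 groups on a linear axis from 0, with circles for females, triangles for males and a line at the group median. Lrg1, Sparc, Etnppl, S100a8 and Tfrc are higher and Cx3cl1, Homer1 and Egr1 lower in 5xFAD/D-45113, and Sparc runs from 451 to 1155 CPM there against 212 to 378 CPM in WT/Veh. The class does not use WT/D-45113, and Lrg1 and S100a8 had log2 fold changes of similar size in WT/D-45113 against WT/Veh.

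Genes of other brain regions also appeared among the higher genes and were named after their values were seen. Tfap2b and Pax7, transcription factors found in midbrain neurons, and the nicotinic receptor subunit Chrna6 of dopaminergic neurons were at 0.122 to 39.2, 0.0706 to 26.2 and 0.367 to 5.13 CPM in 5xFAD/D-45113. In WT/Veh they did not exceed 1.28, 1.59 and 1.09 CPM. Mouse 1F was the highest for Tfap2b and Pax7 (39.2 and 26.2 CPM), while mice 2F and 1M lay within the wild-type range for both. Dlx6os1, a noncoding gene of forebrain inhibitory neurons, was lower with a log2 fold change of -0.96 (adjusted p = 0.000145). The part of the dissection in these values was not tested.

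Genes lower in 5xFAD/D-45113 and not in 5xFAD/Veh included neuronal signalling and synapse genes, and 91 of the 191 were also called below WT/D-45113. By p the zinc finger genes Zswim5 and Zswim6 were among the leading genes, lower by log2 fold changes of -0.91 and -1.18 (adjusted p = 1.89e-06 and 1.41e-05). Cx3cl1, the neuronal ligand of the microglial receptor CX3CR1 (ENSMUSG00000031778, chr8:94772009-94782427, plus strand), was at 351 to 516 CPM (median 408) in 5xFAD/D-45113, 529 to 968 CPM (median 722) in WT/Veh and 502 to 817 CPM (median 665) in 5xFAD/Veh. Every treated 5xFAD mouse was below every WT/Veh mouse (log2 fold change -0.79, adjusted p = 5.92e-06, SE 0.111). The receptor gene Cx3cr1 was, by contrast, higher than in WT/Veh in both 5xFAD groups (log2 fold change 1.02 in 5xFAD/D-45113). Il34, a neuronal ligand of the CSF1 receptor that was chosen after its values were seen, was lower with a log2 fold change of -0.65 (adjusted p = 0.00321). The CSF1R axis list held 12 genes, among them Csf1r, its ligands, Tyrobp and other receptors such as Csf2ra, Csf3r, Kit and Pdgfra. Of the 12 genes 6 were higher and 1, Il34, lower.

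Of 32 postsynaptic genes 0 were higher and 10 lower than in WT/Veh (median -0.37), against 0 called in 5xFAD/Veh, and 6 were lower in the direct test of the 5xFAD groups. Homer1, a scaffold of glutamate receptors (ENSMUSG00000007617, chr13:93299635-93405129, plus strand), was at 54.3 to 118 CPM (median 94.9) in treated 5xFAD mice and at 146 to 262 CPM (median 206) in WT/Veh. The ranges did not overlap (log2 fold change -1.16, adjusted p = 8.25e-05, SE 0.194). Baiap2, an actin regulator of spines, had a log2 fold change of -0.88 (adjusted p = 0.000188). Kcnip2, a potassium channel subunit, and Pde8b, a cyclic AMP phosphodiesterase, changed by -0.94 and -0.71 on the log2 scale (adjusted p = 5.85e-05 and 7.06e-05).

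Immediate early genes, which neurons switch on with activity, were lower as well, with 5 of 25 called lower and 0 higher (median -0.47) and 4 lower in the direct test. Egr1 was at 55.8 to 203 CPM (median 87.8) in 5xFAD/D-45113 and at 173 to 627 CPM (median 345) in WT/Veh (log2 fold change -1.75, adjusted p = 1.31e-05, SE 0.257). Mice 3M and 4M, at 203 and 197 CPM, lay above the lowest WT/Veh mouse. Egr4, of the same family, had a log2 fold change of -1.32 (adjusted p = 0.000336). Vgf, a neuropeptide precursor induced by activity, had a log2 fold change of -0.91 against WT/Veh (adjusted p = 0.00286) without passing between the 5xFAD groups.

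Striatal markers were lower too, with 9 of 12 called and a median of -1.66, and 0 of 12 passed between the 5xFAD groups. Penk, the enkephalin precursor, was at 22.6 to 382 CPM (median 248) against 219 to 1297 CPM (median 656) (log2 fold change -1.83, adjusted p = 0.0113, SE 0.481), and the dopamine receptor gene Drd1 at 5.13 to 115 CPM (median 56.0) against 50.6 to 249.5 CPM (median 159) (log2 fold change -1.80, adjusted p = 0.0131, SE 0.481). The lowest values of both genes were those of mice 2F, 2M and 3M. Without these mice, a setting added after seeing the data, 0 striatal genes were called, 9 postsynaptic and 9 immediate early genes were lower, 30 DAM genes were higher, and 296 of the 354 genes apart only in 5xFAD/D-45113 were still called against WT/Veh. When both other region scores (thalamus, choroid plexus) were covariates, 284 of the 354 were still called against WT/Veh and all 354 kept their direction, but the class fell to 2 genes because the direct test of the 5xFAD groups then called 3 genes (1234 at an unadjusted p under 0.05) in place of 662. With the striatum score added as a covariate 137 of the 354 were still called against WT/Veh, and without the libraries of high thalamus or choroid plexus score 125. Leaving out those libraries left 27 genes in the class, and leaving out mice 1M and 4F left 113.

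Genes apart only in 5xFAD/Veh were called against WT/Veh there and not in 5xFAD/D-45113, and passed the direct test of the 5xFAD groups. A missed call against WT/Veh does not show an equal level. The class included interferon-gamma and homeostatic microglial genes. Of 18 interferon-gamma genes, 14 were higher in 5xFAD/Veh (median 1.81), 3 in 5xFAD/D-45113 (median 0.58), and 11 were lower in the direct test of the 5xFAD groups. Type I interferon genes mostly stayed high, with 21 of 29 higher in 5xFAD/D-45113 (median 1.13), 26 in 5xFAD/Veh (median 1.65) and 4 lower in the direct test. Gbp2, a guanylate-binding protein induced by interferons (ENSMUSG00000028270, chr3:142620602-142638008, plus strand), was at 10.4 to 97.0 CPM (median 12.9) in 5xFAD/Veh, 3.84 to 10.4 CPM (median 7.86) in 5xFAD/D-45113 and 2.8 to 6.19 CPM (median 3.65) in WT/Veh. It was higher in 5xFAD/Veh (log2 fold change 2.63, adjusted p = 2.34e-06), while in 5xFAD/D-45113 against 5xFAD/Veh it had a log2 fold change of -1.80 (adjusted p = 0.00465). The highest value was that of 5xFAD/Veh mouse 1F, and without it the Gbp2 log2 fold change between the 5xFAD groups was -1.07 (adjusted p = 0.0102). Against WT/Veh the treated mice had a log2 fold change whose 95% interval ran from -0.018 to 1.67 (limma voom), so a remaining rise was not shown to be absent. Gbp5, of the same family, whose members share sequence and may have shared reads, was at 2.27 to 6.52 CPM (median 4.11) in 5xFAD/D-45113 and 2.92 to 5.27 CPM (median 4.09) in WT/Veh, within an interval from -0.57 to 0.67, against 7.55 to 35.8 CPM (median 9.77) in 5xFAD/Veh. Cxcl9, a T cell attractant, had medians of 1.48, 0.204 and 0 CPM in 5xFAD/Veh, 5xFAD/D-45113 and WT/Veh, and its call between the 5xFAD groups was lost on leaving out any of 4 mice (adjusted p up to 0.0811) and in 8 other settings.

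The promoters of 5 of these genes and of 1 that stayed away in both groups are shown around an interferon-stimulated response element (ISRE, GAAANNGAAA on either strand), because the interferon-gamma list moved together. Sequences are from RefSeq (GRCm38.p6), read in the direction of the gene, with the ISRE letters in capitals. The matches start 30 to 165 bases before the RefSeq start, which for Gbp2 lies downstream of the gene start given above. Igtp and Irgm2, interferon-induced GTPases, were chosen after their values were seen.
Gbp2 (chr3:142620579-142620638, plus strand): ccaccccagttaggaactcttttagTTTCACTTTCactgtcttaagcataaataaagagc
Gbp3 (chr3:142559974-142560033, plus strand): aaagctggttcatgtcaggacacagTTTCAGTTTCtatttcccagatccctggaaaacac
Gbp5 (chr3:142496744-142496803, plus strand): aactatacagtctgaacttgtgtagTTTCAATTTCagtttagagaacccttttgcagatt
Igtp (chr11:58199497-58199555, plus strand): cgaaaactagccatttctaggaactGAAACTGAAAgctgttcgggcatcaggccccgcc
Irgm2 (chr11:58214888-58214947, plus strand): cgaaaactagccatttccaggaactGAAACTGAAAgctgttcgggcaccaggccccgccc
Irgm1 (chr11:48871421-48871475, minus strand): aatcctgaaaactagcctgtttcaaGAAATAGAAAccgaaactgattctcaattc
Irgm1, an immunity-related GTPase, is the gene that stayed away in both 5xFAD groups (log2 fold change 1.29 against WT/Veh and -0.89 against 5xFAD/Veh). The Gbp matches are the reverse complement of these letters, and the match shown overlapped a further one in Gbp3 and Irgm1. The ISRE was found within the 250 bases before the start of 6 of the 19 genes higher only in 5xFAD/Veh that had a promoter in the table (31.6%), in 31 of 357 genes higher in both 5xFAD groups (8.68%), in 4 of 127 genes higher only in 5xFAD/D-45113 (3.15%) and in 3.21% of 12035 tested genes. Other motifs searched in the same 19 promoters were also above their shares over tested genes. TTNNGCAA (C/EBP) was in 6 (31.6%, against 9.1% of tested genes) and TTCNNNGAA (GAS) in 4 (21.1%, against 7.07%). The ISRE had the lowest of the shares over tested genes (3.21%). With 19 promoters, some of them related, and no test of these shares, the ISRE was not shown to mark these genes. The 6 genes with an ISRE were Gbp2, Gbp3 and Gbp5 on chr3 and Igtp, Irgm2 and Tgtp2 on chr11. Related genes with similar promoters, such as Igtp and Irgm2, were thus counted separately. A match is a run of letters and not a bound site.

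Among homeostatic microglial genes, 17 of 23 were higher in 5xFAD/Veh (median 0.92), 11 of 23 in 5xFAD/D-45113 (median 0.51), and 6 were lower in the direct test. Olfml3, a secreted microglial glycoprotein, was at 66.1 to 107 CPM (median 86.0) in 5xFAD/Veh, 20.6 to 65.6 CPM (median 35.2) in 5xFAD/D-45113 and 18.2 to 35.1 CPM (median 28.3) in WT/Veh. In 5xFAD/D-45113 against 5xFAD/Veh it had a log2 fold change of -1.07 (adjusted p = 0.00503). The treated mice ran from inside the wild-type range to well above it, and their median lay just over the highest WT/Veh mouse. Selplg, the P-selectin ligand, Itgam, the integrin chain CD11b, and Tmem173, the sensor adaptor STING, had log2 fold changes of -0.69, -0.85 and -0.93 in the direct test. P2ry12 and Tmem119, named after their values were seen, were at medians of 47.7 and 29.4 CPM in 5xFAD/D-45113 and 49.5 and 31.5 CPM in WT/Veh, with 95% intervals of the difference from -0.37 to 0.35 and from -0.44 to 0.30. Their calls between the 5xFAD groups were lost when any of 11 and 7 mice, respectively, was left out. Pla2g15, a lysosomal phospholipase, had a log2 fold change of -0.69 against 5xFAD/Veh.

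The 4 genes lower only in 5xFAD/Veh were Heph, Mfn1, P4ha2 and Sec14l4, the last named after its values were seen. The Mfn1 call between the 5xFAD groups was lost on leaving out any of 9 mice and in 11 other settings. Heph, the membrane ferroxidase hephaestin, was at 5.27 to 9.38 CPM (median 6.42) in 5xFAD/Veh, 7.91 to 24.4 CPM (median 18.4) in 5xFAD/D-45113 and 7.52 to 18.3 CPM (median 11.1) in WT/Veh. P4ha2, a collagen prolyl hydroxylase, was higher than in 5xFAD/Veh by 0.86 (adjusted p = 0.00619). Without the low-Thy1 mice 1M and 4F the class held 12 genes in place of 31, and with covariates for those 2 scores it held 0 at adjusted p under 0.05, although all 31 kept the sign of their difference between the 5xFAD groups.

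**Figure D5:**
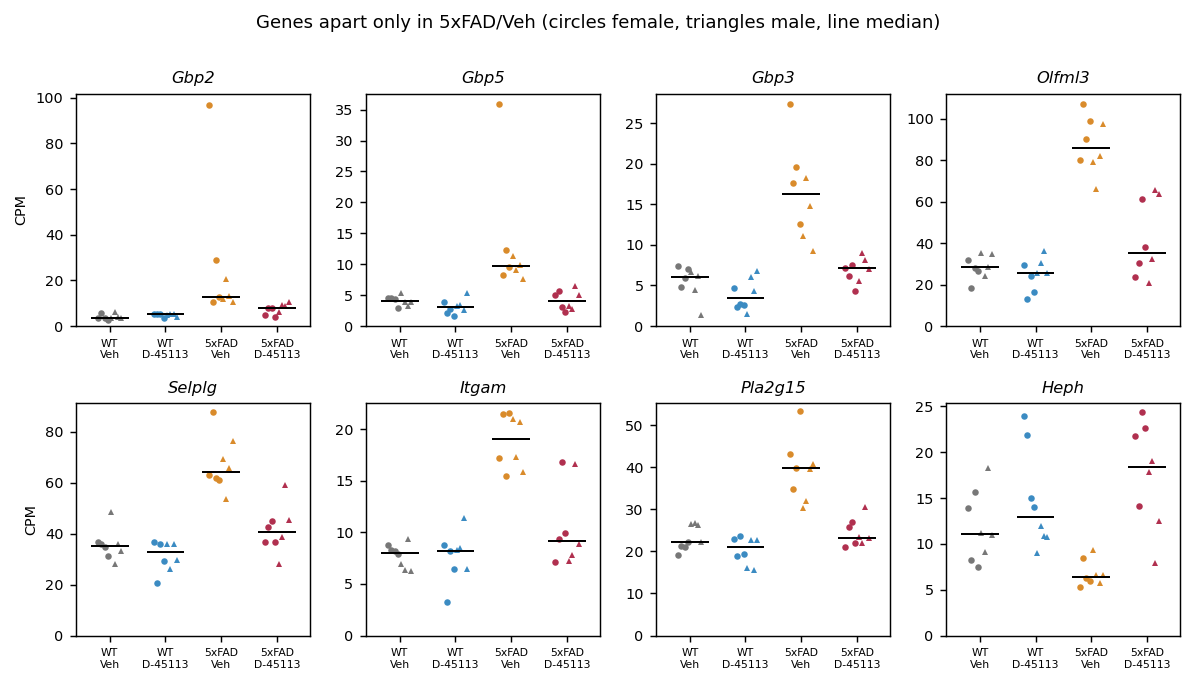
CPM of 8 genes apart only in 5xFAD/Veh, for each mouse of the 4 groups on a linear axis from 0, with circles for females, triangles for males and a line at the group median. Gbp2 has a median of 12.9 CPM in 5xFAD/Veh against 7.86 in 5xFAD/D-45113 and 3.65 in WT/Veh, and Heph is the gene that was lower in 5xFAD/Veh.

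Several other cell types and pathways had no calls against WT/Veh. None of 18 oligodendrocyte, 15 endothelial, 9 pericyte, 14 excitatory neuron or 20 oxidative phosphorylation genes passed, and of 18 choroid plexus and 14 thalamus genes 0 passed at medians of 0.70 and 0.63. In 5xFAD/D-45113 against 5xFAD/Veh all 18 choroid plexus and all 14 thalamus genes had positive log2 fold changes (medians 2.46 and 1.46). Of these, 2 choroid plexus and 3 thalamus genes were called higher, against 2.21% of all genes. Of 20 presynaptic genes 1 was lower, and of 23 cholesterol synthesis genes 1 was lower while 7 were lower than in 5xFAD/Veh. Border macrophage and monocyte genes had 5 of 15 higher (median 1.54), with a median of 1.40 in WT/D-45113 against WT/Veh and 0 called (median 0.16) in 5xFAD/D-45113 against WT/D-45113. Ccr2, the monocyte chemokine receptor, had a log2 fold change of 3.29 (adjusted p = 0.00404). An interaction of sex with the difference between 5xFAD/D-45113 and WT/Veh was called for 0 genes with edgeR (1757 at an unadjusted p under 0.05) and 0 with limma voom.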

How the data were processed

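Hippocampal RNA from 32 mice was sequenced in 4 groups of 8, grouped by the deposited labels. For 54532 genes the authors deposited raw counts, which were used in the tests, and FPKM. The reads were mapped to mm10 per the submitters' processing notes, and which aligner and counter made the tables is not given in the sources used here. Counts were fitted in R 4.3.3 with edgeR 4.0.16: filterByExpr left 16723 genes, TMM scaling and a robust quasi-likelihood model over all 32 libraries, Benjamini-Hochberg adjustment, calls at 0.05. Each SE was taken as the size of the change over the square root of F. CPM are TMM-scaled. Intervals are 95% from limma 3.58.1 voom. List and region scores are means of centred log2 CPM (prior count 2). Alternatives included DESeq2 1.42.0, RLE size factors, voom, other filters, sex, a block on the mouse label, 1 sex, FPKM on the log2 scale with pseudocounts 1 and 0.1, region scores and left-out libraries. Promoter letters are from RefSeq GRCm38.p6, 250 bases before each start, matched by symbol. Plots were made in Python 3.11.15 (matplotlib 3.10.9). Named genes are, per comparison and class, those of smallest p or, among genes averaging 1 CPM or more, largest change, up to 4 per list, and genes from the paper, and others are said to be chosen after their values were seen. The classes, the 39 lists and these rules were chosen with earlier results of these data known. Scripts were tested on simulated data. Each library has its own number and sex in the labels and was taken as 1 mouse. Some genes are not reported here.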

Additional observations from a re-analysis of the deposited data

Results flagged for a closer look

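Dixon's test was run on log2(CPM + 0.1) of the genes followed here, on list scores and on total counts. Genes without counts in more than a single mouse of a group were left out for that group. A single mouse lay far from the other 7 of its group in 8 of 198 sets of values tested (4.04%), where chance alone gives about 5%. In 5xFAD/D-45113, Bcl3, an NF-kappa B cofactor, was highest in mouse 2F at 8.114 CPM against 1.745 to 3.261 CPM in the others. The other 7 concern WT/Veh. Mouse 1M was lowest for Gpnmb (1.454 CPM against 4.011 to 8.589) and for Mrc1 (0.4241 CPM against 1.878 to 3.065), and highest for Grn (94.38 CPM against 62.95 to 75.12) and Zswim5, a zinc finger gene (55.25 CPM against 30.63 to 37.56). Mouse 4F was lowest for Cybb at 0.0621 CPM against 0.7122 to 1.391, mouse 4M lowest for Gbp3 at 1.424 CPM against 4.504 to 7.4, and mouse 1F lowest for Drd1 at 50.6 CPM against 121.5 to 249.5.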

How the results depend on the processing

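None of the 97 gene results followed reversed, but many lost their call. These were 44 of 96 in males only, 31 of 96 in females only and 37 of 97 without libraries of high thalamus or choroid plexus score. With those scores as covariates 19 of 97 lost it, and with the striatum score added 31. With DESeq2 or RLE size factors 0 did. The main counts were 1805 genes away from WT/Veh in 5xFAD/D-45113, 486 in both 5xFAD groups, 354 only in 5xFAD/D-45113 and 31 only in 5xFAD/Veh. In that order the counts were 649, 218, 82 and 9 in females only and 542, 276, 0 and 0 in males only. Leaving out libraries with a high thalamus or choroid plexus score gave 562, 320, 27 and 3. These scores as covariates left 2 and 0 in the last classes, and with the striatum score added after seeing the data the 4 counts were 622, 310, 7 and 0. Leaving out 5xFAD/D-45113 mice 2F, 2M and 3M, also added, gave 1194 and 47 for the comparison and the class only in 5xFAD/Veh. Genes only in 5xFAD/D-45113 were 537 with DESeq2, 185 with no filter, 206 with only the groups compared, 113 without mice 1M and 4F and 131 without 3F and 4F. Genes only in 5xFAD/Veh were 63 with DESeq2, 50 on log2(FPKM + 1) and 12 without 1M and 4F.

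Leaving out 1 mouse in turn gave 1340 to 2024 genes for the comparison, 429 to 503 in both, 190 (without 5xFAD/D-45113 2M) to 551 (without 3M) only in 5xFAD/D-45113, with 216 without 4F and 226 without 5xFAD/Veh 1F, and 19 (without 5xFAD/Veh 1F) to 49 (without 5xFAD/D-45113 3M) only in 5xFAD/Veh. Same-numbered mice of different groups deviated together (correlation over 0.1) in 7 of 24 cases. Their median correlation was 0.052, against -0.016 for differently numbered mice of the same sex. Such weak correlations cannot settle whether the labels pair mice. The replicate block gave 1988, 502, 376 and 35 genes. Among all counted genes some changed direction: with the 3 scores as covariates 945 of the 965 unresolved genes and 27 of the 31 only in 5xFAD/Veh kept theirs. Values under about 1 CPM, as for the neutrophil genes and for Cst7 and Atp6v0d2 in WT/Veh, rest on few reads a mouse.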
